A study of Rattus norvegicus with 3 samples.

Results

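The transcripts described here are those of 6 transcription factor genes that act in the development and cell identity of the pineal gland or in the control of differentiation: Neurod1, Pax6, Hes1, Id1, Id2 and Id3. They were taken as every probe set whose platform annotation gives only one of these symbols, which gave 10 of the 8799 probe sets of a rat expression array and 6 of the 4737 genes that the annotation names singly. Transcript levels were measured in total RNA on 3 arrays of a time course, whose time labels were 0.0 h, 0.1 h and 1.0 h. All 3 samples carry a source label that names both the pineal gland and the adrenal medulla. What the time was counted from, and whether 0.1 h is a literal time, could not be settled, so the labels serve here only as names of the arrays. Nothing used here states the treatment, how many rats made up a sample, or their strain, sex and age. Each time label has a single array, so the values have no replicates and no test, and precision is limited by the small number of arrays.

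Basic helix-loop-helix factors pair through the helix-loop-helix and bind DNA through the basic stretch. Neurod1 belongs to this family and works as a dimer with a widely expressed E protein; it is known from neurons, pancreatic islets, retina and pineal gland. The Id proteins keep the helix-loop-helix but lack the basic stretch, so they capture E proteins in dimers that do not bind DNA. Hes1 is a repressor of the same wide family and the classic target of Notch signalling, and it holds down proneural genes. Pax6 carries a paired domain and a homeodomain, and without it the pineal gland and the eye do not form.

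The values are scaled intensities, which are the deposited linear intensities after the arrays were brought to equal medians. Values under the 40th percentile were treated as too dim to compare, and this floor came to intensities of 249.1 for 0.0 h, 272.5 for 0.1 h and 273.3 for 1.0 h. A difference was taken only where both arrays lay above it. Read from the brightest probe set of each gene, 2911 of all 4737 genes lay above the floor on all 3 arrays. That share is the background for the list counts given here. Pinealocyte markers matched the source label: 8 of 8 markers with a probe set lay above the floor on all 3 arrays, among them 3 genes of melatonin synthesis. Tph1 had 22075, 16977 and 22623, Asmt had 5746, 13861 and 9169.8, and Aanat had 253, 401 and 506, the first of them just above the floor. The pineal homeobox genes Crx and Otx2 were not represented by a probe set of their own. Of 10 chromaffin cell markers with a probe set, 5 lay below the floor on all 3 arrays, among them the catecholamine enzyme genes Th and Dbh and the chromaffin regulator Phox2a. The other 5 were above it on all arrays: Pnmt, the enzyme that makes adrenaline, with 611, 657 and 514, and Ddc, Chgb, Penk and Npy. The chromaffin list was thus split between markers below the floor and markers above it. How far the latter are particular to chromaffin cells was not tested. In RNA of a whole tissue, fewer cells of a type and less RNA per cell cannot be told apart.

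None of the 6 genes had a probe set that differed 2-fold between a pair of arrays on which it lay above the floor on both. The dimmer Id3 probe set, AF000942_at, was below the floor at 1.0 h and so was not compared there. All 10 probe sets were measured at 0.1 h against 0.0 h, and 8 lay above 0 and 2 below, with a median log2 difference of 0.33. Over all 4759 measured probe sets the median was 0.03, the middle 90% ran from -0.95 to 1.09, and 10.5% were at least 2-fold apart (6.32% higher and 4.2% lower). At 1.0 h against 0.0 h, 6 of 9 measured member probe sets lay above 0, with a median of 0.22. Over all 4792 the median was 0.03, the middle 90% ran from -0.80 to 0.84, and 5.47% were at least 2-fold apart (3.01% higher and 2.46% lower). At 1.0 h against 0.1 h, 4 of 9 lay above 0, with a median of -0.17, against 9.33% of 4780 probe sets at least 2-fold apart (3.83% higher and 5.5% lower). Over all measured probe sets, 52%, 52.5% and 49.1% lay above 0 in these comparisons, in the same order. Some genes count more than once among the member probe sets. Read by gene from the brightest probe set, 5, 4 and 3 of 6 lay above 0. Every measured member value fell inside the middle 90% of all probe sets in all 3 comparisons. Set against these background shares, a count of 0 among 10 members is near the background. Both comparisons with 0.0 h share that array, so its own error enters both. An alternative scaling made the signals of the spike-ins, transcripts added as hybridisation controls, equal on all arrays. It put 6 of 10, 8 of 9 and 8 of 9 member probe sets above 0, and it moved the medians of all probe sets to -0.25, 0.23 and 0.46.

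**Figure D1:**
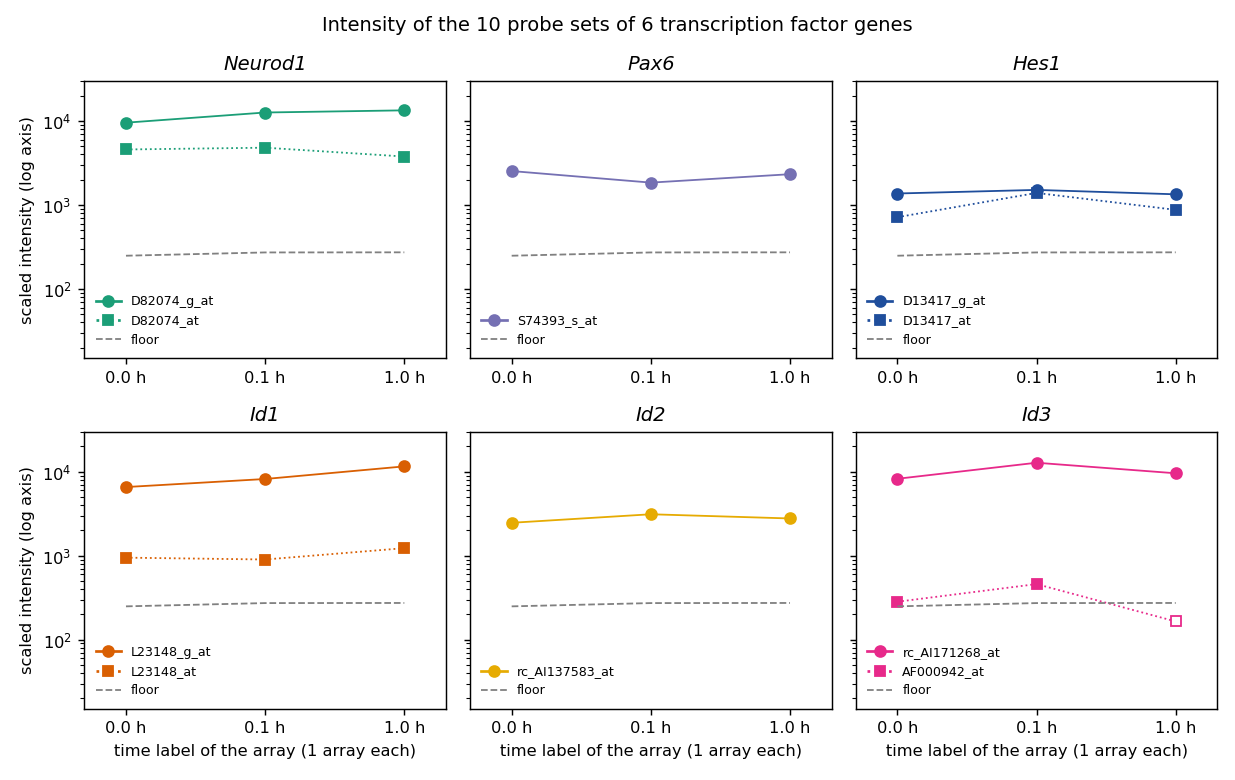
Scaled intensity (log axis) of the 10 probe sets on the 0.0 h, 0.1 h and 1.0 h arrays, 1 panel per gene and 1 array per point; circles are the brighter probe set of a gene, squares the dimmer one, an open symbol a value below the floor, and the dashed grey line the floor. Id1 was highest at 1.0 h on both of its probe sets, Id3 was highest at 0.1 h on both (under the spike-in scaling its brighter probe set was 0.05 higher at 1.0 h on the log2 scale), and Pax6 was lowest at 0.1 h.

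Id1 and Id3 had the widest differences from 0.0 h among the brightest probe sets of the 6 genes. Id1, an inhibitor of differentiation known from growing cells and from endothelium, read 6567 at 0.0 h, 8192 at 0.1 h and 11578 at 1.0 h in scaled intensity on its brighter probe set, L23148_g_at. It was lowest at 0.0 h and highest at 1.0 h, and was 1.76-fold higher at 1.0 h than at 0.0 h, a log2 difference of 0.82. This was the only member value outside the middle 90% of probe sets of similar mean intensity, which ran from -0.80 to 0.66. The dimmer probe set designed from the same GenBank record, L23148_at, had 947, 900.4 and 1229. It was also highest at 1.0 h, but 1.30-fold higher than at 0.0 h, and its 0.0 h and 0.1 h values were nearly level with a log2 difference of -0.07. Both probe sets of Id1 therefore put 1.0 h on top, with log2 differences of 0.50 and 0.45 against 0.1 h, and they gave 0.1 h opposite signs against 0.0 h.

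Id3, which like Id1 captures E proteins and is a common early target of bone morphogenetic protein signals, had 8240.3, 12797 and 9583 on the 3 arrays on its brighter probe set, rc_AI171268_at. The 0.1 h array was the highest, 1.55-fold above 0.0 h with a log2 difference of 0.64, and 1.0 h lay between the others. The dimmer probe set, AF000942_at, comes from another GenBank record and had 283, 459 and 165. It lay 1.62-fold higher at 0.1 h than at 0.0 h, a log2 difference of 0.70, while the 1.0 h value was below the floor and the 0.0 h value little above it. The probe sets of Id3 thus had like differences at 0.1 h, and the direction at 1.0 h rests on 1 of them, with a log2 difference of 0.22.

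Id2, the family member known for its role in immune cells and in daily rhythms of metabolism, had 2465, 3114 and 2775 on its single probe set. It was highest at 0.1 h, 1.26-fold above 0.0 h with a log2 difference of 0.34, and 0.17 above 0.0 h at 1.0 h. On their brightest probe sets all 3 Id genes were higher at 0.1 h and at 1.0 h than at 0.0 h under all 7 alternative scalings and floors. The differences between 1.0 h and 0.1 h were 0.50 for Id1, -0.17 for Id2 and -0.42 for Id3. Those of Id2 and Id3 turned positive, to 0.31 and 0.05, when the arrays were scaled to equal spike-in signals.

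The following sequences show what lies just upstream of the Id genes in the RefSeq promoter table of GRCr8, with basal promoter motifs in capitals, to set the family members beside each other. Capitals mark the CCAAT box, spelled CCAAT. They also mark the GC box, which was searched as GGGCGG. In Id1 they mark the TATA box as well, for which the letters were TATAAA. Each was searched on both strands of the 250 bases before the start, and all 6 genes were found in the table. The stretches are chr3:161671451-161671520 on the plus strand for Id1, chr6:47471015-47471183 on the minus strand for Id2 and chr5:153656165-153656194 on the plus strand for Id3.
Id1: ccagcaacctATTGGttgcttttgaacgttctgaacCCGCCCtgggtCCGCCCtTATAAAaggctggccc
Id2: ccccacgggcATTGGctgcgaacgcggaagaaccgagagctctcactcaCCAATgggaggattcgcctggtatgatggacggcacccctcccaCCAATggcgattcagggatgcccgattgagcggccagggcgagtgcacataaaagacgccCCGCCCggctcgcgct
Id3: gcggtgcccaGGGCGGGCGGgggtggagcc

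Positions are counted from the start that the promoter table uses, which coincides with the start of the RefSeq gene for Id2, Hes1 and Neurod1. It lies inside the gene by 39 bases for Id1, 38 for Id3 and 562 for Pax6, whose whole window is therefore within the gene. The Id1 stretch held 1 CCAAT box 103 bases upstream of the start, 2 GC boxes and a TATA box 59 bases upstream. Id2 held 3 CCAAT boxes, 178, 139 and 95 bases upstream, and 1 GC box. Id3 held 2 GC boxes that overlap each other, 116 and 112 bases upstream. GC boxes were not particular to the Id genes: the Neurod1 window held 4, more than any of them, while Pax6 and Hes1 held none. Of 33469 promoter windows of 250 bases, 34.0% held a CCAAT box, 30.5% a GC box and 12.9% a TATA box, and 2.52% held 3 or more CCAAT boxes, a count chosen after the Id2 matches were seen and also met by Hes1. The cyclic AMP response element TGACGTCA, found in 1.59% of windows, was in the window of none of the 6 genes. A match is a description of letters and not evidence of a bound site.

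Hes1 was the member with the widest single difference and with probe sets that disagreed. The dimmer probe set, D13417_at, had 716, 1394 and 876 on the 3 arrays, so that 0.1 h stood apart at 1.95-fold above 0.0 h, a log2 difference of 0.96. The brighter one, D13417_g_at, designed from the same GenBank record, had 1372, 1514 and 1342, which is nearly level with a log2 difference of 0.14. Both were highest at 0.1 h, by amounts that were 0.82 apart on the log2 scale. Among 357 such pairs of probe sets measured at 0.1 h against 0.0 h the median gap was 0.27 and the 90th percentile 0.81, so Hes1 lay at the wide end of the pairs. At 1.0 h the log2 differences from 0.0 h were 0.29 and -0.03. The brighter probe set turned to -0.13 at 0.1 h and to 0.16 at 1.0 h under the spike-in scaling.

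Hes1 protein is known to bind N boxes in its own promoter, and RBPJ, the DNA-binding partner of Notch, is known to bind sites close by. The upstream stretch of the rat gene is shown for these motifs, with capitals on the N box CACNAG and the RBPJ core TGGGAA on either strand. It is chr11:84213054-84213259 of GRCr8, minus strand, from RefSeq.
Hes1: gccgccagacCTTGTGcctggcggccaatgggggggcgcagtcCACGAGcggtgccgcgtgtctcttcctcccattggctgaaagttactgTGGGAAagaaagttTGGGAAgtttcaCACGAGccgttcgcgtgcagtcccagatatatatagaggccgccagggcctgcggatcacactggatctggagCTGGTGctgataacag

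This stretch held 4 N boxes, at 204, 171, 97 and 24 bases upstream, and 2 RBPJ cores at 123 and 109 bases, and none of these 6 matches overlap. At least 1 N box was in 37.2% of all windows and at least 1 RBPJ core in 22.1%, while 0.197% held 4 or more N boxes and 2.71% held 2 or more RBPJ cores. The latter counts were chosen after the Hes1 matches were seen. Among the other members, Neurod1 and Pax6 held 1 N box each and Pax6 held 1 RBPJ core, and the Id genes held neither.

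Neurod1, which keeps mature pinealocytes and photoreceptors in their differentiated state, was bright on both of its probe sets. The highest array was 1.40-fold above the lowest on the brighter probe set and 1.27-fold on the dimmer one. Its brighter probe set, D82074_g_at, had 9571, 12655 and 13429, lowest at 0.0 h, with log2 differences of 0.40 and 0.49 at 0.1 h and 1.0 h. The dimmer one, D82074_at, had 4590.2, 4820.5 and 3782, lowest at 1.0 h, with log2 differences of 0.07 and -0.28. The probe sets of Neurod1 therefore disagreed in direction at 1.0 h, 0.77 apart on the log2 scale. Of 348 pairs from 1 GenBank record measured at 1.0 h against 0.0 h, 112, or 32.2%, had opposite signs, and the 90th percentile of the gap was 0.82. No direction for Neurod1 at 1.0 h follows from these values.

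**Figure D2:**
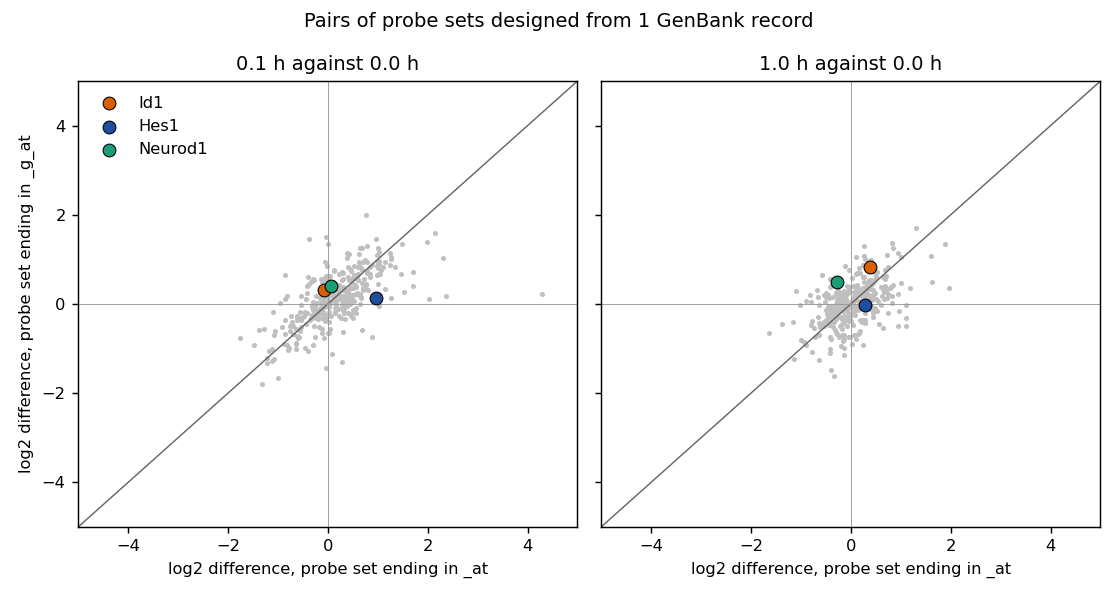
Log2 difference of the probe set ending in _g_at (vertical axis) against that of the probe set ending in _at (horizontal axis) for pairs designed from 1 GenBank record, at 0.1 h and at 1.0 h against 0.0 h; grey points are all other measured pairs and the diagonal marks equal values. Hes1 lay far right of the diagonal at 0.1 h (0.96 against 0.14), and Neurod1 lay in the quadrant of opposite signs at 1.0 h (-0.28 against 0.49).

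Pax6, which is required for pineal and eye formation, had 2540.1, 1849.6 and 2329 on its single probe set. It was the only member whose brightest probe set was lower at 0.1 h than at 0.0 h, 1.37-fold with a log2 difference of -0.46, and this sign held under all 7 alternatives, from -0.73 to -0.45. At 1.0 h it lay 0.12 below 0.0 h on the log2 scale and 0.33 above 0.1 h. The former turned to 0.07 under the spike-in scaling.

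**Figure D3:**
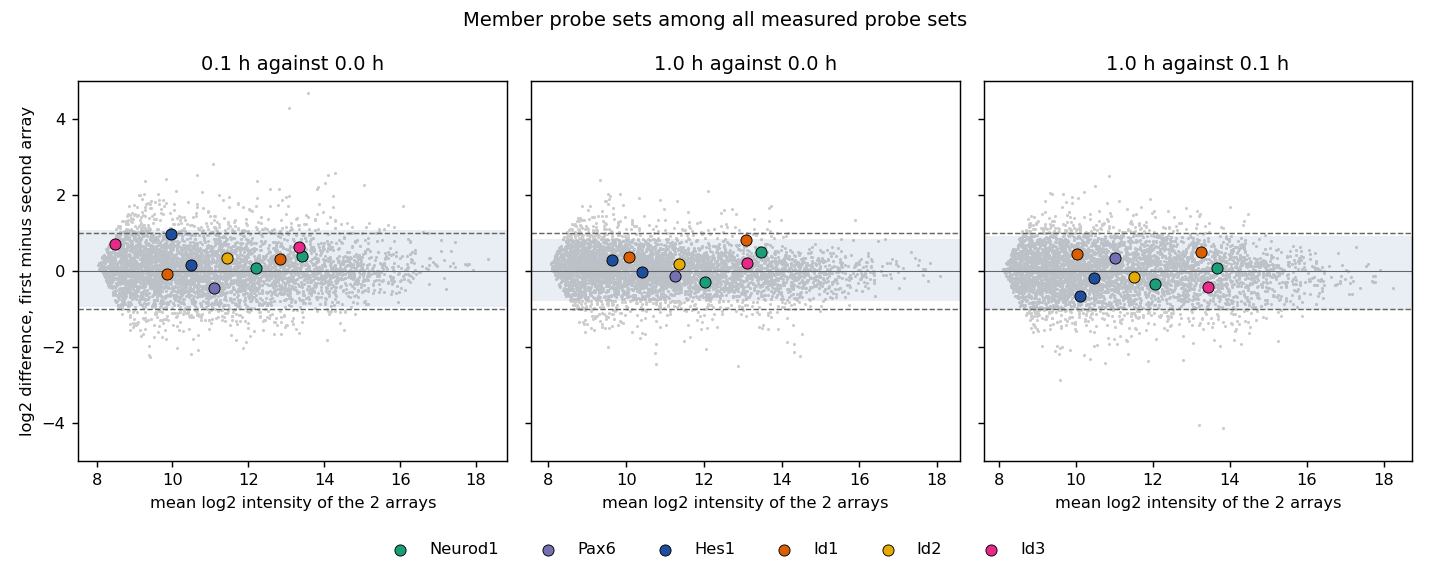
Log2 difference (vertical axis, first minus second array) against mean log2 intensity of the same arrays (horizontal axis) for all measured probe sets (grey) and the members (coloured), with 1 panel per comparison; the shaded band holds the middle 90% of all probe sets and dashed lines mark 2-fold. All coloured points lie between the dashed lines and inside the band, the outermost being Hes1 at 0.96 in the first panel and Id1 at 0.82 in the second.

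Several technical measures and marker lists also differed between the arrays. Degraded RNA raises the signal of a transcript's 3' end over its 5' end. For the beta-actin control this ratio was 10.4 at 0.0 h, 17.8 at 0.1 h and 44.4 at 1.0 h. For GAPDH it was 15.3, 18.6 and 14.1. The brighter probe sets of Id1 and Neurod1 had the same order as beta-actin, and their dimmer ones did not. The E protein genes Tcf4 and Tcf3, the latter on its brighter probe set, also had that order. The 9 spike-in probe sets were on average 0.27 higher at 0.1 h than at 0.0 h on the log2 scale and 0.20 lower at 1.0 h. Endothelial markers, of which 5 of 11 had a probe set and 2 lay above the floor on all arrays (Kdr and Flt1), had summed intensities of 3381, 2382 and 3243, with Icam2 below the floor throughout. This sum was lowest at 0.1 h and includes values below the floor. Flt1 itself had 793, 662 and 1245, highest at 1.0 h as was Id1, and Kdr had 1489, 1228 and 1277, highest at 0.0 h. Macrophage and leukocyte markers, with 11 of 13 on the array and 5 above the floor throughout, had sums of 6955, 8646 and 6982, highest at 0.1 h as was Id3, with Itgam, Csf1r and Cd8a below the floor on all arrays. Its single markers were mixed: 3 of 6 measured lay above 0 at 0.1 h and 4 of 5 at 1.0 h, with a median of 0.28 in both, and the exception at 1.0 h was Fcer1a at -1.27. Pinealocyte markers had sums of 62269, 73409 and 55071, also highest at 0.1 h. The sums of the chromaffin, glia, Schwann cell and central neuron lists were highest at 0.1 h as well. Those of the fibroblast, adrenal cortex and skeletal muscle lists were highest at 1.0 h, and that of choroid plexus at 0.0 h. A sum highest at 0.1 h was therefore not particular to the leukocyte list. The part of these differences in the values of the Id genes, Hes1, Neurod1 and Pax6 was not tested.

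E proteins are the partners that Id proteins capture and that Neurod1 needs. Of the 7 listed Id and E protein genes, 5 were measured: the members Id1, Id2 and Id3, already described, and Tcf3 and Tcf4. All 5 were higher at 0.1 h and at 1.0 h than at 0.0 h on their brightest probe sets. The medians were 0.39 and 0.44, and none was at least 2-fold apart. Over all measured probe sets, 52% and 52.5% lay above 0 in these comparisons. Tcf4 had scaled intensities of 614, 961 and 1065, with log2 differences of 0.65 and 0.79 from 0.0 h. Tcf3 had 808, 1059 and 1095 on its brighter probe set, with 0.39 and 0.44, and its other probe set had 0.39 and -0.10. Tcf12 lay below the floor on all 3 arrays. Under the spike-in scaling the brightest probe sets of these 5 genes stayed above 0 in both comparisons, with list medians of 0.12 and 0.63, and the other Tcf3 probe set turned from -0.10 to 0.098 at 1.0 h.

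Other tissue-restricted basic helix-loop-helix genes were mostly dim: of 11 with a probe set, 8 lay below the floor on all 3 arrays, including the muscle factor Myog and the proneural genes Neurog1 and Neurog3. Neurod1 was the only one above the floor throughout, against 2911 of all 4737 genes. Neurod2, a neuronal relative of Neurod1, had 447, 908 and 228, so it was 2.03-fold higher at 0.1 h than at 0.0 h and below the floor at 1.0 h. Only 2 genes of this list were measured at 0.1 h against 0.0 h, where 6.32% of all probe sets were at least 2-fold higher. Myod1, the muscle determination factor, had 285, 75.0 and 451 and was above the floor at 0.0 h and 1.0 h only.

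In the Notch pathway, the input to Hes1, 14 of 19 genes with a probe set were above the floor on all arrays, against 2911 of all 4737 genes. The median log2 difference of the pathway was 0.09 in both comparisons with 0.0 h. At 0.1 h, 1 gene was at least 2-fold higher, the ligand gene Dll3 at 2.19-fold, and 1 at least 2-fold lower, Aph1a, which encodes a gamma-secretase subunit, at 2.54-fold. Aph1a had 10660.3, 4191 and 13239.6 on its brighter probe set, which was low on the 0.1 h array alone. Its other probe set, from the same GenBank record, had 355 at 0.0 h and lay below the floor at 0.1 h and 1.0 h. The other Dll3 probe set was below the floor on all arrays. Rbpj had 1576, 891 and 1708, also lowest at 0.1 h, with a log2 difference of -0.82. The receptor genes Notch1 and Notch4 lay 0.54 and 0.79 above 0.0 h at 0.1 h and 0.75 and 0.81 above it at 1.0 h. Among relatives of Hes1, Hes3 had 489, 285 and 563, while Hes2 and Hes5 lay below the floor on all arrays. No gene of this list was 2-fold apart at 1.0 h against 0.0 h, where Aph1a and Furin, which encodes a protease that processes Notch, had log2 differences of 0.31 and -0.10. At 1.0 h against 0.1 h Aph1a was 1.66 higher on the log2 scale on its brighter probe set. It was the only 1 of 15 measured genes at least 2-fold apart there, against 9.33% of all probe sets.

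Homeobox and paired box genes gave 8 measured at 0.1 h and 10 at 1.0 h against 0.0 h, with medians of 0.29 and -0.12 and none at least 2-fold apart. Pax6 was the lowest of the 8 at 0.1 h. Pax4, a relative that acts in islets and photoreceptors, had 908, 1613 and 747 on the only one of its 3 probe sets above the floor and was 2.16-fold lower at 1.0 h than at 0.1 h. It was the only 1 of 8 measured genes at least 2-fold apart in that comparison, against 9.33% of all probe sets. Msx1, a homeobox gene downstream of bone morphogenetic proteins, had 1348, 1489 and 2048, with log2 differences of 0.14 and 0.60.

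Bone morphogenetic proteins and their Smad proteins are the best known inducers of Id1 and Id3. Of 31 genes of this pathway and the related TGF-beta pathway with a probe set, 15 lay above the floor on all arrays. Over all genes this was 2911 of 4737. Another 10 of the 31 lay below the floor on all arrays, among them Bmp2, Bmp4, Bmp7 and the inhibitory Smad7. The ligand gene Bmp6 lay above the floor on all arrays, with 421, 829.7 and 647 and log2 differences of 0.98 and 0.62 from 0.0 h, while its other probe set was below the floor throughout. The median log2 differences were -0.02 at 0.1 h and 0.15 at 1.0 h against 0.0 h. At 0.1 h the receptor gene Bmpr1a was 2.78-fold higher, with 355, 989 and 200.4 and the last below the floor, and the activin receptor gene Acvr2b was 2.32-fold lower with 2140.5, 921 and 1295. Of 17 measured genes, 1 was thus at least 2-fold higher and 1 lower, near the shares of 6.32% and 4.2% over all probe sets. The other Acvr2b probe set went the opposite way, with 216 at 0.0 h, below the floor, and 369.9 and 330.3 on the other arrays. At 1.0 h Fst, which encodes the activin antagonist follistatin, was 2.08-fold higher than at 0.0 h and 2.37-fold higher than at 0.1 h on its brighter probe set, but had log2 differences of -0.15 and -0.16 on its other one. Tgfb3 was 2.03-fold higher at 1.0 h than at 0.1 h on its brighter probe set, with 13640.4, 7997 and 16195, and 0.33 higher on the log2 scale on its other one. At 1.0 h, 1 of 15 measured genes was at least 2-fold higher than at 0.0 h, against 3.01% of all probe sets. Against 0.1 h it was 2 of 15, beside 3.83% of all probe sets.

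Genes known as islet targets of Neurod1 and Pax6 were mostly below the floor: 7 of 12 with a probe set on all 3 arrays, glucagon (Gcg), somatostatin (Sst) and Iapp among them. Of the 12, 4 lay above the floor on all arrays, against 2911 of all 4737 genes. The insulin genes, whose probe sets can share sequence between Ins1 and Ins2, had log2 differences of 0.42 for Ins1 and -0.11 for Ins2 at 0.1 h and -0.17 and -0.48 at 1.0 h. By contrast, immediate early genes had 4 of 17 measured at least 2-fold higher at 0.1 h than at 0.0 h and 6 of 18 at 1.0 h, against a background of 6.32% and 3.01% of probe sets at least 2-fold higher. The nuclear receptor gene Nr4a1, the prostaglandin synthase gene Ptgs2 and the zinc finger gene Egr1 had log2 differences of 2.10, 1.76 and 1.71 at 0.1 h. At 1.0 h Nr4a1 had 1.72 and Egr1 had 1.34. The other Egr1 probe sets differed: M18416_at had 1.59 and 1.29 at 0.1 h and 1.0 h, and U75398_s_at had 0.19 and -0.09. A further one, rc_AI176662_s_at, was above the floor at 1.0 h only. Klf4, another zinc finger factor, had 973, 1931 and 3578, highest at 1.0 h, with log2 differences of 0.99 and 1.88. At 1.0 h against 0.1 h Ier3 alone of 18 measured genes was at least 2-fold apart, against 9.33% of all probe sets. Its log2 difference was -1.24, with -0.17 on its other probe set.

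**Figure D4:**
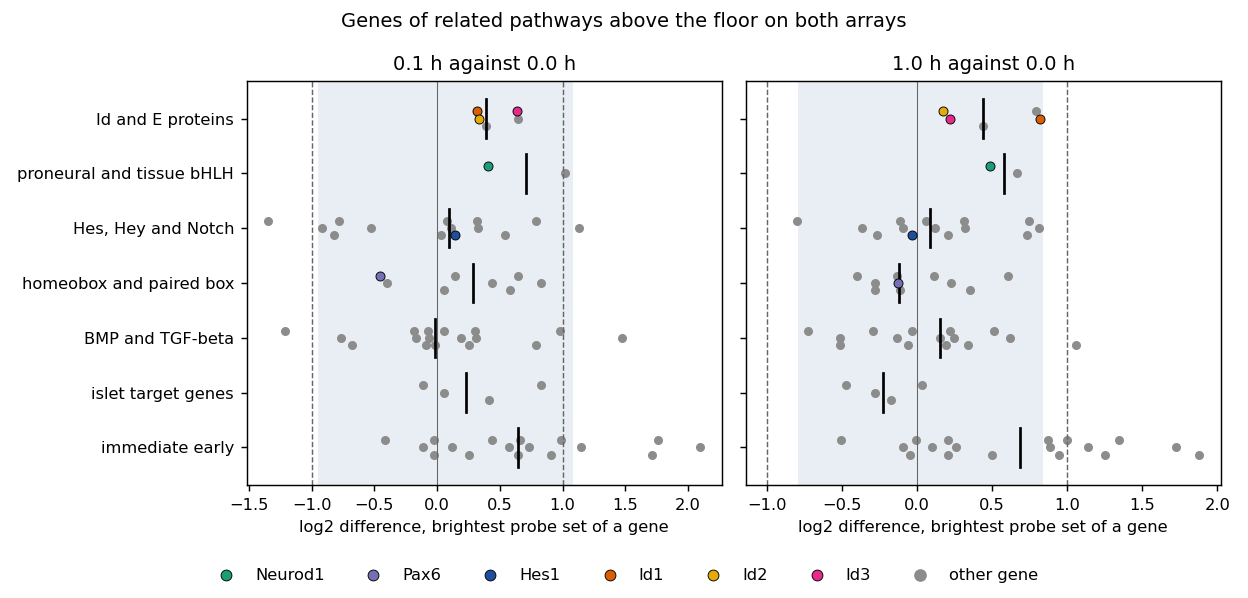
Log2 difference (horizontal axis) of the brightest probe set of each gene above the floor on both arrays, in 7 lists of related genes (rows), at 0.1 h and at 1.0 h against 0.0 h; coloured points are the members, grey points other genes, black bars list medians, the shaded band the middle 90% of all probe sets and dashed lines 2-fold. The Id and E protein genes, which are the members Id1, Id2 and Id3 with Tcf3 and Tcf4, all lie right of 0. Their medians are 0.39 and 0.44, while the Notch list is centred near 0 with a median of 0.09 in both.

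The likeness of other genes to each member was measured as the distance between log2 values over the 3 arrays, each gene centred on its own mean, over 2910 genes above the floor on all arrays. Id1 had the fewest near genes, with 14 within a distance of 0.1, the nearest being Apoc3, Mpp3 and C1qb. Id3 had 51 within that distance, led by Ube2a, Cd14 and Grik5, and Id2 had 80, led by Aggf1, Ppp2r1a and Imp3. Neurod1 had 50, led by Pde4d, mrpl24 and Cox8a. Pax6 had 74, led by Ndufc2, Il18 and Ciao2b, and Hes1 on its brighter probe set had 107, led by Dnaaf9, Rpl35 and Ngfr. Among the members themselves Id2 and Hes1 were nearest to each other at 0.16, followed by Id2 and Id3 at 0.23, and Pax6 and Id3 were farthest apart at 0.79. The values were not scaled to equal size, so the number of near genes depends on how widely a gene differs as well as on its pattern. The fold range over the arrays was 1.76 for Id1 and 1.13 for Hes1. All members were read from their brightest probe sets, and the dimmer ones of Id1, Neurod1 and Hes1 ordered the arrays otherwise. With 3 values per gene such a pattern is coarse, and many genes share it.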

How the data were processed

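RNA of 3 rat samples was measured on 1 array each. The deposited values are linear intensities, 1 per probe set; no source used here gives the summary method or software. Per the deposited values, means without the highest and lowest 2% were 2503.7 to 2503.9, so arrays had been scaled before deposit. The 59 control probe sets were left out. Of the other 8740, 7006 had 1 symbol in the platform annotation, 308 several and 1426 none. Intensities were scaled to equal array medians, the floor was set, and a last shift equalised the medians of those probe sets that passed the floor on every array, a total log2 change of 0.01, 0.04 and -0.05 from the deposited intensity. A gene was read from its brightest probe set (mean log2).

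Members, lists and rules were chosen with earlier results of these data known. Named genes were all members; per list, up to 3 genes per direction at least 2-fold apart, or else the 2 brightest; the 3 nearest genes per member; and Aanat, Asmt and Tph1. Other genes named from the lists were chosen after their values were seen. Alternatives were deposited scaling, quantile and cyclic loess normalisation (limma 3.58.1, R 4.3.3), equal spike-in probe sets, floors at the 20th and 60th percentiles, log2(intensity + 100), averaged probe sets and second-brightest probe sets. The steps were tested on simulated data with less noise than the real arrays and planted changes of more than 2-fold. That test does not show how well smaller differences are read.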

Additional observations from a re-analysis of the deposited data

How the results depend on the processing

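With 1 array per label, an alternative was called moved when it shifted a log2 value by more than the spread of the log2 differences over all probe sets (0.53, 0.44 and 0.56 in the comparisons of 0.1 h with 0.0 h, 1.0 h with 0.0 h and 1.0 h with 0.1 h), or a count by over 1.5 times. Of 28 differences of member probe sets, 20 kept their sign under all alternatives run and none moved by that spread. The other 8 turned sign, all when spike-in signals were equalised, which shifted the median of all probe sets from 0.03 to -0.25, from 0.03 to 0.23 and from -0.01 to 0.46. Relative to these, the member medians were 0.30, 0.19 and -0.16 under both scalings. The spike-in scaling shifts every probe set of an array by the same amount, so these relative medians could not change. With that scaling 6 of 10, 8 of 9 and 8 of 9 member probe sets lay above 0, and 1 was 2-fold higher at 1.0 h than at 0.0 h, Id1 L23148_g_at at 1.01. Under the 20th percentile floor, or log2(intensity + 100), 1 was 2-fold lower at 1.0 h than at 0.1 h, the dim Id3 probe set AF000942_at at -1.49 and -1.07.

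Counts of all probe sets 2-fold higher and lower were 301 and 200, 144 and 118, and 183 and 263 in that order of comparisons. With equal spike-in signals they were 137 and 451, 274 and 62, and 788 and 58. Under the 20th percentile floor they were 542 and 476, 370 and 359, and 434 and 518. Under the 60th percentile floor they were 176 and 130, 67 and 62, and 99 and 161. With log2(intensity + 100) they were 474 and 550, 381 and 427, and 425 and 479. The median of the tissue-restricted basic helix-loop-helix list, which rests on 2 genes (0.71 at 0.1 h and 0.58 at 1.0 h against 0.0 h), was 0.083 at 0.1 h with log2(intensity + 100). On the second-brightest probe set, of 1 gene, it was 0.071 at 0.1 h and -0.28 at 1.0 h. At 1.0 h against 0.1 h, the Notch median of 0.02 was -0.62 on second-brightest probe sets of 3 genes, and the homeobox median of -0.46 was 0.35 under the 60th percentile floor and 0.17 with log2(intensity + 100). Of 426 list counts under alternatives, 68 moved. No paired analysis was possible because each label has 1 array.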
